A study of Mus musculus with 12 samples.

Results

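Store-operated calcium entry refills the calcium store of the endoplasmic reticulum (ER), and its genes were followed here in a mouse melanoma model in which the tumor cells carry a fluorescent calcium reporter. The set holds 10 genes of 77175 in the count table, taken by symbol with no threshold on their values, though the set was proposed with earlier results of these data known: Orai1, Orai2, Orai3, Stim1, Stim2, Itpr1, Itpr2, Itpr3, Atp2a2 and Atp2a3. Each of the 10 symbols stood on a single row, and all 10 passed the filter on low counts in every comparison. The genes fall into 4 families, with 3 ORAI, 2 STIM, 3 IP3 receptor and 2 SERCA genes.

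The pathway works as a loop between the plasma membrane and the ER. Receptors that activate phospholipase C make the messenger IP3, and IP3 receptors (encoded by Itpr1, Itpr2 and Itpr3) then release calcium from the ER. STIM proteins sense the emptied store and open ORAI channels in the plasma membrane, and SERCA pumps (encoded by the Atp2a genes) return calcium to the ER. In T cells this entry is the main calcium signal after antigen recognition, with STIM1 and ORAI1 as its best known parts, while melanoma cells use calcium entry in growth and migration.

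The 12 libraries of polyadenylated RNA form 4 groups of 3. B16-F10, a mouse melanoma line, carried a lentiviral GCaMP6s gene, a calcium reporter under the EF1A promoter, in every tumor, and the OVA line carried in addition a lentiviral ovalbumin gene under the same promoter. The cells were grown in NOD-SCID mice, a strain that lacks its own T and B cells but keeps its myeloid cells and stroma, and all mice received OT-1 CD8+ T cells (genotype C57BL/6J-OT-I, with a receptor for an ovalbumin peptide) that had been activated with anti-CD3/anti-CD28 beads. Tumors were taken 2 days after transfer and digested with enzymes. Tumor cells were then sorted by GCaMP6s fluorescence and T cells were picked with CD8 antibody beads. The groups are called B16-F10 tumor, OVA tumor, B16-F10 T cell and OVA T cell libraries, after the tumor line and the cell fraction on the label. An OVA effect, or a gene that rose or fell with OVA, means below only a difference between the OVA and B16-F10 libraries of a fraction. Marker sums of other cell types, given below, differ between the same groups, and the cause of such a difference was not tested. The sources used here do not give the age of the mice, nor whether a line is a clone or each library a separate mouse. A p-value below therefore sets a group difference against the scatter of libraries within a group, and that scatter may be technical. Between 2 libraries of a group, the scatter was 1.51 to 1.77 times that of counting alone (chi-square per degree of freedom). Ovalbumin and GCaMP6s reads were not analysed here, so the antigen label was not checked.

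Library totals ran from 15494683 to 33263730 counts, and mitochondrial genes took 1.71% to 1.80%, 6.42% to 6.57%, 3.22% to 3.38% and 2.76% to 2.79% of them in B16-F10 tumor, OVA tumor, B16-F10 T cell and OVA T cell libraries. Markers went partly against the labels. The 12 melanoma cell markers summed to 27600 CPM (counts scaled to a library total of 1000000) in each B16-F10 tumor library, 11900 in each OVA tumor library, 301 to 307 in the B16-F10 T cell libraries and 129 to 137 in the OVA T cell libraries. The 18 T cell markers summed to 16.3 to 17.4, 176 to 186, 1280 to 1290 and 1190 to 1200 CPM in the same order, with Cd3e, Cd2, Trac and Trbc2 at 0 in the B16-F10 tumor libraries. In the T cell libraries the 12 endothelial markers summed to 9940 to 10000 and 9090 to 9160 CPM, the 12 fibroblast markers to 5460 to 5550 and 5160 to 5240 CPM, and the 12 mural and smooth muscle markers to 4880 to 4910 and 4280 to 4320 CPM, each above the T cell markers. The OVA tumor libraries held 3940 to 3980, 2100 to 2110 and 1700 to 1730 CPM of these 3 lists and 2830 to 2850 CPM of the 12 macrophage and monocyte markers, against 42.4 to 44.9, 106 to 112, 80.1 to 91.0 and 15.9 to 17.0 CPM in the B16-F10 tumor libraries. Emcn, Cldn5 and Erg of the endothelial list and Kcnj8 of the mural list were at 0 counts in the B16-F10 tumor libraries. Col1a1, Col1a2 and Col3a1 made most of the fibroblast sum in the T cell libraries. They had means of 1821, 1194 and 1733 CPM with B16-F10 and 1636, 1024 and 1660 CPM with OVA. Thy1 of the same list had 409 and 505 CPM there. Dcn, Lum, Pdgfra, Pdpn, Dpt and Mfap5 had at most 10.5 CPM as means of the T cell groups. Fewer cells of a type and less RNA per cell cannot be told apart in such bulk libraries.

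Promoter sequences of 4 members are shown. Orai1, Itpr3 and Atp2a3 were chosen because they had the widest range between group means (7.57-fold, 18.2-fold and 97.1-fold) and, as given below, the same order of levels. Orai3 was chosen because its range was narrow (1.35-fold), although that of Itpr2 was narrower (1.19-fold). Each is the 250 bases before the gene start (5′ to 3′ on the gene's strand, from RefSeq on GRCm38.p6, with 8 of the 10 members in that table), and capitals mark the letters GGGCGG, the core bound by SP1 and KLF factors, on either strand.
Orai1 (chr5:123014824-123015073, plus strand): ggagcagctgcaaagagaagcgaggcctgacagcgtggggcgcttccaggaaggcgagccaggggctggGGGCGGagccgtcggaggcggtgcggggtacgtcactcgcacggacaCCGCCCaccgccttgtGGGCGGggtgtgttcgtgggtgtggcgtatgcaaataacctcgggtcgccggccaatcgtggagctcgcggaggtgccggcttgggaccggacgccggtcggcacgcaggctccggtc
Itpr3 (chr17:27057054-27057303, plus strand): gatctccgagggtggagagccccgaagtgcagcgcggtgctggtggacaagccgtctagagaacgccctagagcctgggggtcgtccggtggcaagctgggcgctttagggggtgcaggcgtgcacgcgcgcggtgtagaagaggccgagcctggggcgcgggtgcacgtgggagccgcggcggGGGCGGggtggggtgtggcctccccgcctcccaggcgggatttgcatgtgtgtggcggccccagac
Atp2a3 (chr11:72960919-72961168, plus strand): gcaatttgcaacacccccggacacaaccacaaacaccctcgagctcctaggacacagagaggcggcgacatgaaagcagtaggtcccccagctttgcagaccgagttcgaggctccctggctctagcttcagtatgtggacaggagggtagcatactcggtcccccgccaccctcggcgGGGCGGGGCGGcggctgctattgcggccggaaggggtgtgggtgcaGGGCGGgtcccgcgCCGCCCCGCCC
Orai3 (chr7:127769565-127769814, plus strand): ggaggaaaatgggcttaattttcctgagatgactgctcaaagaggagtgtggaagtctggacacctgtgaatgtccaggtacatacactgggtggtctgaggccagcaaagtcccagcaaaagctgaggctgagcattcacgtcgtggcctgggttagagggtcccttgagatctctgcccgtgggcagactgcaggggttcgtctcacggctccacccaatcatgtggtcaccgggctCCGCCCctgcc
The core stood 3 times in the Orai1 window, 1 time in that of Itpr3, 5 times (overlaps counted) in that of Atp2a3 and 1 time in that of Orai3, and at least once in 32.7% of the 32851 promoters of the table. GC content was 70.8%, 72.0%, 66.8% and 57.2% in the same order, against a median of 52.4% over all promoters. Windows not shown held 8 cores and 78.4% GC (Stim1, range 1.41-fold) and 3 cores and 74.8% (Stim2, 1.42-fold). Those of Itpr2 (1.19-fold) and Orai2 (3.22-fold) held 4 cores and 74.4%, and 1 core and 63.6%. Many cores and a high GC content thus stood in narrow-range members too. Of the other motifs searched on both strands, the E-box CACGTG (in 6.02% of all promoters) stood once in the Itpr3 window and the ETS core CCGGAA (in 12.0%) once in that of Atp2a3. The M-box TCATGTG (in 3.25%), which the melanocyte factor MITF can bind, and the NFAT core GGAAA (in 55.6%) stood 1 time and 2 times in the Orai3 window, and the RUNX core TGTGGT (in 14%) once each in those of Orai3 and Atp2a3. In Orai3 the M-box and the RUNX core overlap. The AP-1 motif TGANTCA (in 6.75%) and the cAMP response element TGACGTCA (in 1.55%) stood in none of the 4 windows. These are matches of letters and not measured sites.

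The ORAI channel genes differed most in Orai1, the pore subunit of the classical entry current. Orai1 stood at 8.37, 9.18 and 8.81 CPM in the 3 B16-F10 tumor libraries and at 31.4, 31.7 and 30.8 CPM in the OVA tumor libraries. In the T cell libraries it stood at 68.8, 65.4 and 65.3 CPM (B16-F10) and at 56.6, 55.7 and 58.4 CPM (OVA). No 2 groups overlapped, and the order ran from B16-F10 T cell over OVA T cell and OVA tumor down to B16-F10 tumor libraries. Its level was 3.99-fold higher in OVA than in B16-F10 tumor libraries after TMM scaling (log2 fold change 2.00, SE 0.0593, adjusted p = 4.73e-19 by edgeR's quasi-likelihood test), and in the T cell libraries it fell by 0.17 on the log2 scale (SE 0.0363, adjusted p = 3.79e-04).

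Orai2, a channel subunit that can form mixed channels with ORAI1, followed the same order with smaller steps. It had 16.7, 16.5 and 15.7 CPM in B16-F10 tumor and 29.7, 26.1 and 30.05 CPM in OVA tumor libraries, and 50.7, 52.0 and 54.5 CPM in B16-F10 T cell and 37.2, 36.0 and 39.2 CPM in OVA T cell libraries. None of these groups overlapped. With OVA it rose by 0.99 on the log2 scale in the tumor libraries (SE 0.0598, adjusted p = 4.22e-13) and fell by 0.42 in the T cell libraries (SE 0.0444, adjusted p = 8.37e-09).

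Orai3, found in mammals only and part of channels with other gating, had a higher CPM in tumor than in T cell libraries. Its libraries held 19.7, 18.1 and 19.7 CPM (B16-F10 tumor), 17.9, 18.2 and 17.3 CPM (OVA tumor), 14.6, 13.8 and 15.8 CPM (B16-F10 T cell) and 14.4, 13.9 and 14.2 CPM (OVA T cell). Each tumor library was above each T cell library, while the 2 tumor groups overlapped and so did the 2 T cell groups. Its OVA effects did not pass the test, with log2 fold changes of 0.06 (SE 0.0582, adjusted p = 0.322) in tumor and 0.0048 (SE 0.0721, adjusted p = 0.965) in T cell libraries. T cell libraries were lower than tumor libraries by 0.20 among OVA tumors (SE 0.0609, adjusted p = 0.0055), a call lost with median-ratio size factors (adjusted p = 0.196) and with DESeq2 (adjusted p = 0.362). Among B16-F10 tumors its log2 difference was -0.13 (SE 0.0644, adjusted p = 0.0565).

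**Figure D1:**
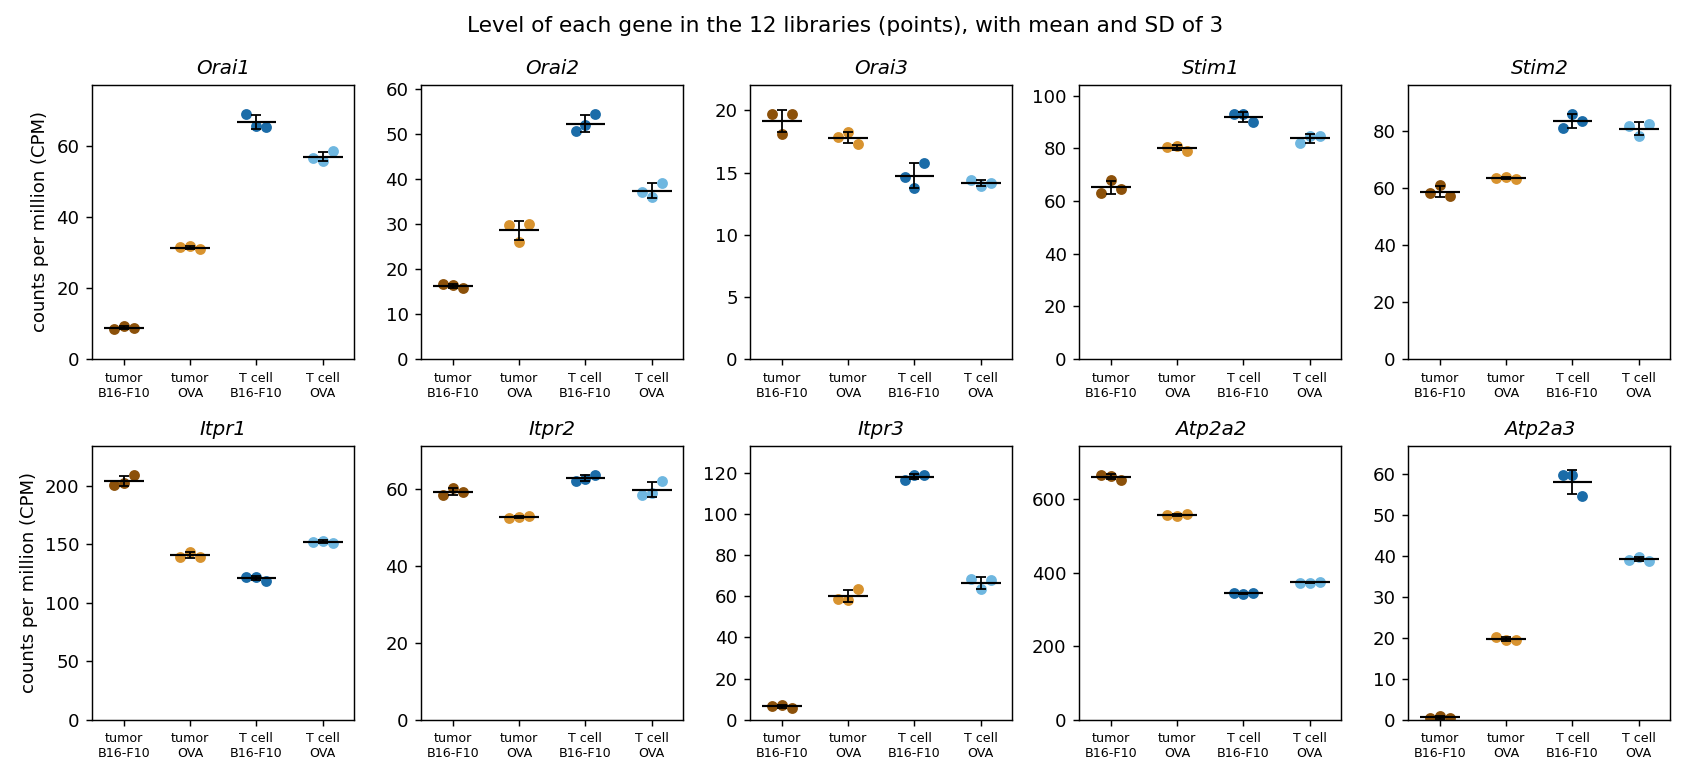
Level of each of the 10 genes in CPM (vertical axes, each from 0) in the 12 libraries (points), by group, with the mean and SD of 3 as bars. Orai1, Orai2, Stim1, Stim2, Itpr3 and Atp2a3 have their lowest mean in B16-F10 tumor and their highest in B16-F10 T cell libraries. Atp2a2, Itpr1 and Orai3 have their highest mean in B16-F10 tumor libraries, where Orai3 overlaps with OVA tumor libraries.

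The make-up of the ORAI family therefore differed between groups. Per kb of exon, Orai3 took 57.9% ± 1.80 (SD, n = 3) of the summed ORAI level in B16-F10 tumor libraries and Orai1 24.8% ± 1.49, while Orai1 took 51.1% ± 0.673, 65.1% ± 1.47 and 66.0% ± 0.219 in OVA tumor, B16-F10 T cell and OVA T cell libraries. Orai2 held 16.4% to 19.4% in all 4 groups. The ratio of Orai3 to Orai1 counts, which no scaling between libraries can move, was 2.19 ± 0.193 in B16-F10 tumor and 0.569 ± 0.00570 in OVA tumor libraries, and 0.222 ± 0.0176 and 0.249 ± 0.00611 in B16-F10 and OVA T cell libraries. The libraries of the tumor groups did not overlap in this ratio, nor did those of the T cell groups (two-sided exact permutation p = 0.1 for each, the smallest that 3 against 3 allow).

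STIM sensor genes varied less. Stim1, the main sensor of a deeply emptied store, had 63.1, 67.9 and 64.4 CPM in B16-F10 tumor and 80.6, 81.0 and 79.1 CPM in OVA tumor libraries, and 92.9, 92.8 and 89.8 CPM and 81.9, 84.6 and 84.8 CPM in the B16-F10 and OVA T cell libraries. Its groups did not overlap, although the OVA tumor and OVA T cell libraries lay close together. With OVA, Stim1 rose by 0.47 on the log2 scale in tumor libraries (SE 0.0322, adjusted p = 5.04e-12). In T cell libraries its log2 fold change was -0.08 (SE 0.0295, adjusted p = 0.0302), a call that was lost with DESeq2 (adjusted p = 0.174), without a filter on low counts (0.130), in a fit of all 12 libraries (0.0552), and without OVA T cell library 1 (0.187) or 3 (0.0506) or B16-F10 T cell library 1 (0.118) or 2 (0.0909).

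Stim2, the sensor of small falls in store calcium, had 58.05, 61.0 and 57.05 CPM in B16-F10 tumor and 63.55, 63.9 and 63.1 CPM in OVA tumor libraries, and 80.9, 85.8 and 83.6 CPM and 81.55, 78.2 and 82.4 CPM in the B16-F10 and OVA T cell libraries. The 2 T cell groups overlapped and the tumor groups did not. Stim2 rose by 0.28 with OVA in tumor libraries (SE 0.0340, adjusted p = 9.64e-08), and in T cell libraries its log2 fold change was 0.01 (SE 0.0316, adjusted p = 0.762). Per kb of exon Stim2 took 61.5% to 66.1% of the STIM level in the 4 groups, so that its level per length was above that of Stim1 in each. In mean CPM Stim1 was the higher in each group. The order per length thus rests on the exon lengths used, 10371 bases for Stim1 and 5133 for Stim2. The ratio of Stim2 to Stim1 counts was 0.792 ± 0.00547 in OVA and 0.901 ± 0.0173 in B16-F10 tumor libraries, which did not overlap (two-sided exact permutation p = 0.1), and 0.964 ± 0.0368 and 0.909 ± 0.0327 in the T cell groups, which did (p = 0.3 by the same exact test).

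Among the IP3 receptor genes, Itpr3 had the widest range. Itpr3 encodes the receptor type that is common in epithelial and secretory cells and is found at ER contacts with mitochondria. It stood at 6.72, 6.98 and 5.75 CPM in the B16-F10 tumor libraries and at 58.5, 58.1 and 63.7 CPM in the OVA tumor libraries. The B16-F10 T cell libraries had 117, 119 and 119 CPM and the OVA T cell libraries 68.45, 63.4 and 67.7 CPM. All OVA tumor libraries were above all B16-F10 tumor libraries, while OVA tumor and OVA T cell libraries overlapped. Itpr3 was 10.3-fold higher in OVA than in B16-F10 tumor libraries (log2 fold change 3.37, SE 0.0644, edgeR adjusted p = 7.99e-23). In T cell libraries it was lower with OVA by 0.77 on the log2 scale (SE 0.0303, edgeR adjusted p = 1.22e-17). The part of the marker sums in these differences was not tested.

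Itpr1, the receptor type that dominates in neurons, went the opposite way to Itpr3. Its tumor libraries had 201, 202 and 209 CPM with B16-F10 and 139.6, 144 and 139.6 CPM with OVA, and its T cell libraries 122, 122 and 119 CPM with B16-F10 and 152, 153 and 151 CPM with OVA. No 2 groups overlapped. Itpr1 fell by 0.37 on the log2 scale in tumor (SE 0.0208, adjusted p = 1.25e-13) and rose by 0.39 in T cell libraries (SE 0.0230, adjusted p = 9.74e-14). Itpr2, a receptor type prominent in liver and heart, stayed within a range of 1.19-fold between group means, from 52.6 ± 0.263 CPM in OVA tumor to 62.7 ± 0.732 CPM in B16-F10 T cell libraries. Its OVA effects did not pass the test, at -0.0025 (SE 0.0338, adjusted p = 0.949) in tumor and -0.01 (SE 0.0362, adjusted p = 0.834) in T cell libraries. Its CPM did not overlap between the tumor groups, and with scaling by library totals it fell by 0.17 in them (adjusted p = 7.18e-05).

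Summed CPM over the 3 receptor genes ranged from 254 ± 2.87 (OVA tumor) to 302 ± 1.35 (B16-F10 T cell), so the family changed more in make-up than in its sum. Per kb of exon Itpr1 took 70.3% ± 0.798, 43.0% ± 1.13, 27.6% ± 0.459 and 42.1% ± 0.963 in B16-F10 tumor, OVA tumor, B16-F10 T cell and OVA T cell libraries, and Itpr3 took 4.53% ± 0.492, 37.2% ± 1.34, 54.7% ± 0.310 and 37.4% ± 1.01. The ratio of Itpr3 to Itpr1 counts was 13.5-fold higher in OVA than in B16-F10 tumor libraries (0.427 ± 0.0268 against 0.0318 ± 0.00378) and 2.23-fold lower in OVA than in B16-F10 T cell libraries (0.437 ± 0.0206 against 0.976 ± 0.0217). Neither pair of groups overlapped in this ratio (two-sided exact permutation p = 0.1, the smallest possible here). In the OVA libraries the shares of the 3 receptors in the tumor and T cell fractions lay within 1 percentage point of each other.

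**Figure D2:**
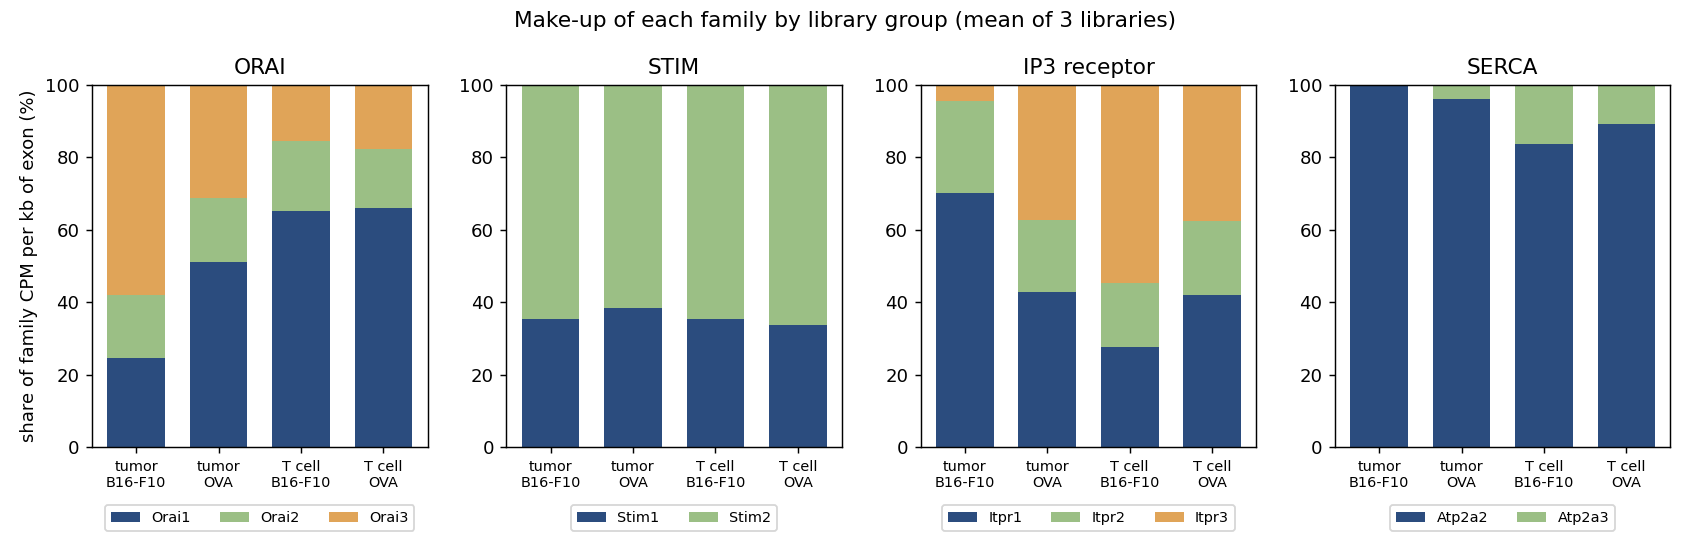
Share of each family's level per kb of exon (vertical axis, %) taken by its members in the 4 groups (stacked bars, mean of 3 libraries). Orai1 and Itpr3 take 24.8% and 4.53% in B16-F10 tumor and 65.1% and 54.7% in B16-F10 T cell libraries, and the STIM make-up varies little.

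The SERCA pump genes split. Atp2a2, which encodes the housekeeping pump, was the most abundant member per kb of exon in every group, with 108.5 ± 1.118, 91.6 ± 0.469, 56.55 ± 0.188 and 61.4 ± 0.228 CPM per kb in B16-F10 tumor, OVA tumor, B16-F10 T cell and OVA T cell libraries. Its tumor libraries held 665, 663 and 652 CPM with B16-F10 and 556, 555 and 560 CPM with OVA. Its T cell libraries held 344, 343 and 345 CPM with B16-F10 and 372, 373 and 375 CPM with OVA. No 2 groups overlapped. Its OVA effects were small, at -0.08 in tumor (SE 0.0146, adjusted p = 5.55e-05) and 0.17 in T cell libraries on the log2 scale (SE 0.0161, adjusted p = 6.96e-10).

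Atp2a3 encodes SERCA3, the pump of blood, endothelial and some epithelial cells, and was close to absent in the B16-F10 tumor libraries. There it had 9, 22 and 8 counts, or 0.423, 0.948 and 0.422 CPM, and the OVA tumor libraries had 20.3, 19.5 and 19.5 CPM. The B16-F10 T cell libraries had 59.75, 59.7 and 54.7 CPM and the OVA T cell libraries 39.1, 39.8 and 38.85 CPM. The 4 groups were well apart, with a 97.1-fold range between their means. Its level was 35.9-fold higher in OVA than in B16-F10 tumor libraries (log2 fold change 5.17, SE 0.142, edgeR adjusted p = 9.77e-20). In T cell libraries it was lower with OVA by 0.51 on the log2 scale (SE 0.0428, edgeR adjusted p = 9.61e-11). The endothelial and other marker sums differed between the same tumor groups, and their part was not tested. Per kb of exon it took 0.104% ± 0.0522 of the SERCA level in B16-F10 tumor, 3.93% ± 0.0984 in OVA tumor, 16.3% ± 0.725 in B16-F10 T cell and 10.8% ± 0.143 in OVA T cell libraries. The ratio of Atp2a3 to Atp2a2 counts was 42.3-fold higher in OVA than in B16-F10 tumor libraries and 1.6-fold lower in OVA than in B16-F10 T cell libraries, with no overlap in either (two-sided exact permutation p = 0.1).

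In the tumor comparison, 6 of the 10 genes were higher with OVA (Orai1, Orai2, Stim1, Stim2, Itpr3 and Atp2a3) and 2 lower (Itpr1 and Atp2a2), against 42% higher and 37.4% lower of all 17418 genes tested. The median log2 fold change of the 10 was 0.37, against 0.04 over all genes. Orai1, Itpr3 and Atp2a3 were called higher by more than 2-fold in edgeR's test against that fold, as were 3867 of all 17418 genes tested. When the libraries were scaled to the melanoma markers in place of TMM, all 10 were higher (median 1.42), with Itpr1 at 0.68, Itpr2 at 1.04 and Atp2a2 at 0.97, and the median of all genes moved to 1.09 with 96.0% of 15992 calls higher, against 52.9% of 13838 under TMM. The marker sums given above differed between the same groups (all 12 endothelial, 12 mural and smooth muscle and 12 macrophage and monocyte markers and 17 of 17 tested T cell markers were higher with OVA, 11 of 12 fibroblast markers were higher, and 11 of 12 melanoma markers lower), and their part in the result was not tested.

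In the T cell comparison, 2 genes were higher with OVA (Itpr1 and Atp2a2) and 5 lower (Orai1, Orai2, Stim1, Itpr3 and Atp2a3), against 23.7% higher and 22.4% lower of all 16536 genes tested. The median log2 fold change of the 10 was -0.045, against -0.0074 over all genes, and the largest change, that of Itpr3, was 1.70-fold. Scaling by library totals left the members at 2 higher and 5 lower, while 38.8% of 7976 calls over all genes were higher, against 51.3% of 7623 under TMM. Melanoma markers were lower with OVA in 11 of 11 tested, endothelial markers went 3 higher and 7 lower of 12, fibroblast markers 2 higher and 5 lower of 12, macrophage and monocyte markers 2 higher and 8 lower of 12, mural and smooth muscle markers 4 higher and 6 lower of 12, and T cell markers 8 higher and 6 lower of 18, and their part in the result was not tested.

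**Figure D3:**
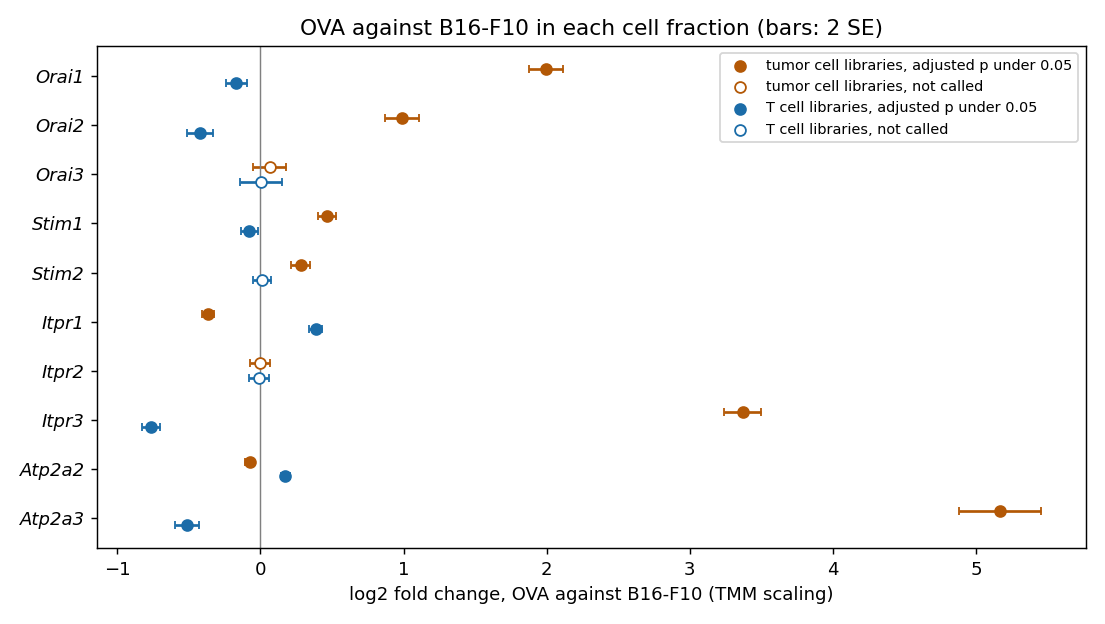
Log2 fold change of OVA against B16-F10 (horizontal axis, TMM scaling, 3 libraries against 3) for each gene in tumor and T cell libraries, with bars of 2 SE and open points where the adjusted p is 0.05 or more. In tumor libraries Atp2a3, Itpr3 and Orai1 stand at 5.17, 3.37 and 2.00, and the T cell values lie between -0.77 and 0.39.

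For most genes tested, members included, the OVA effects themselves differed between the fractions. In a fit of all 12 libraries the difference (tumor effect minus T cell effect) passed the test for 8 of the 10 genes, against 69% of all 18562 genes tested (41.3% above 0 and 27.7% below). It was above 0 for Orai1 (2.17, SE 0.0680), Orai2 (1.42, SE 0.0763), Stim1 (0.55, SE 0.0433), Stim2 (0.27, SE 0.0463), Itpr3 (4.14, SE 0.0725) and Atp2a3 (5.68, SE 0.144), and below 0 for Itpr1 (-0.75, SE 0.0305) and Atp2a2 (-0.25, SE 0.0205). The adjusted p was at most 1.24e-05 among these 8. A count of 8 of 10 lay near the share over all genes. Orai3 (0.06, SE 0.0888, adjusted p = 0.563) and Itpr2 (0.01, SE 0.0473, adjusted p = 0.860) did not pass.

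Between the fractions of B16-F10 tumors calls were common over all genes, and among the members Atp2a3, Itpr3, Orai1 and Orai2 stood furthest apart. T cell libraries were higher for 7 of the 10 and lower for 2, against 45.5% and 40.4% of the 18562 genes tested. Atp2a3 was 111-fold higher (log2 fold change 6.80, SE 0.106), Itpr3 21.4-fold (4.42, SE 0.0564), Orai1 8.98-fold (3.17, SE 0.0515) and Orai2 3.80-fold (1.93, SE 0.0562), all 4 beyond 2-fold in the test against that fold. The same test called 5445 of all 18562 genes higher. All 9 called differences had an adjusted p of at most 1.89e-09. Stim1 (0.74), Stim2 (0.75) and Itpr2 (0.33) were higher by less, and Itpr1 (-0.51) and Atp2a2 (-0.69) were lower. Orai3 was not called. All 12 endothelial, 12 mural and smooth muscle and 18 T cell markers were higher in the T cell libraries and all 12 melanoma markers lower, and their part in these differences was not tested.

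Between the fractions of OVA tumors the differences were smaller in size for Orai1, Orai2, Itpr3 and Atp2a3. T cell libraries were higher for 8 of the 10 and lower for Orai3 and Atp2a2, against 37.3% and 40.2% of all genes. Atp2a3 was 2.17-fold higher (log2 fold change 1.115, SE 0.0541) and was the member called beyond 2-fold (adjusted p = 0.0267 in edgeR's test against that fold). The same test called 1980 of all 18562 genes higher, so 1 of 10 members lay near the background. Orai1 was 2.00-fold higher (1.00, SE 0.0386), Orai2 1.43-fold (0.51, SE 0.050) and Itpr3 1.22-fold (0.28, SE 0.0379), although the CPM of Itpr3 overlapped. The call for Stim1 (0.19, SE 0.0293, adjusted p = 1.62e-06) was lost with scaling by library totals (0.06, adjusted p = 0.0558). Itpr1, lower in T cell libraries among B16-F10 tumors, was higher there by 0.24 (SE 0.0209, adjusted p = 6.54e-11) among OVA tumors. The comparisons between fractions share libraries with the OVA comparisons, so their values are not separate evidence. All 12 endothelial and 12 mural and smooth muscle markers and 17 of 18 T cell markers were higher in the OVA T cell than in the OVA tumor libraries, all 12 melanoma and 12 macrophage and monocyte markers were lower, and their part was not tested.

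The genes most like each member over the 12 libraries were sought among 11650 genes by the correlation of log2(CPM + 1). Kcnj8, a potassium channel gene of the mural marker list, was most like Itpr3 (r = 0.9991), with mean levels of 0, 35.2, 112 and 45.2 CPM in B16-F10 tumor, OVA tumor, B16-F10 T cell and OVA T cell libraries. Mcam, an adhesion gene of the same list, was most like Atp2a3 (r = 0.9994), at 67.5, 552, 1270 and 972 CPM. Orai1 was closest to Pmepa1 (r = 0.9994), at 7.73, 40.2, 103 and 87.1 CPM, and then to Sh2d2a and Egflam. Atp2a2 was closest to the glycolysis gene Aldoa (r = 0.9997) at 2680, 1850, 642 and 753 CPM. Itpr1 was closest to Tmbim6 (r = 0.9953), an ER membrane gene described below as an IP3 receptor partner. Itpr2 was closest to Rpl9 (r = 0.9727), then to Mical1 (0.965) and Plcg1 (0.9643). For Orai2, Orai3 and Stim2 the closest were Hrct1, Abcd4 and Nsmaf. Such a correlation rests on 4 groups whose marker sums differ and is a description.

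The wider pathway was read from 5 lists of 82 symbols, of which 80 were found in the table. The marker sums above moved between the same groups here too. Regulators of STIM and ORAI were 9 higher and 1 lower of 10 tested with OVA in tumor libraries (median log2 fold change 0.47), against 42% higher and 37.4% lower of all genes tested (median 0.04). In T cell libraries they were 4 higher and 4 lower of 10 (median -0.10), against 23.7% higher and 22.4% lower of all genes (median -0.0074). Esyt1, a tether between ER and plasma membrane, had 34.1 ± 0.0899, 121 ± 0.765, 229 ± 2.02 and 240.3 ± 4.63 CPM in B16-F10 tumor, OVA tumor, B16-F10 T cell and OVA T cell libraries, and rose with OVA in both fractions (2.00 and 0.13). Cracr2b, which encodes a calcium-binding partner of ORAI1, rose by 1.89 in tumor libraries (7.70 ± 1.14 and 25.4 ± 0.736 CPM) and fell by 0.23 in T cell libraries (51.9 ± 1.42 and 42.6 ± 0.523 CPM). Saraf, which encodes an inhibitor that turns STIM off, rose by 0.50 in tumor (122 ± 2.36 and 152 ± 3.13 CPM) and fell by 0.32 in T cell libraries (235.5 ± 0.957 and 181 ± 3.27 CPM). Tmem178, an inhibitor of store-operated entry, fell by 1.09 in T cell libraries (3.65 ± 0.117 and 1.65 ± 0.107 CPM) and was called higher with OVA in tumor libraries, where it had 1 count over the 3 B16-F10 and 56 over the 3 OVA libraries.

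Phospholipase C genes, whose enzymes make IP3, were 7 higher and 3 lower of 12 with OVA in tumor libraries (median 0.44) and 1 higher and 5 lower of 11 in T cell libraries (median -0.15). Over all genes tested the shares were 42% higher and 37.4% lower in tumor and 23.7% higher and 22.4% lower in T cell libraries. Plcb1, an isoform driven by G proteins, went from 0.215 ± 0.0958 to 37.6 ± 1.55 CPM in tumor libraries (log2 fold change 7.54, SE 0.131) and stood at 99.8 ± 4.87 and 81.4 ± 1.94 CPM in the T cell groups. Plce1 followed the same order, from 0.222 ± 0.0384 over 8.17 ± 0.783 CPM in tumor libraries to 21.1 ± 1.11 and 26.35 ± 0.333 CPM in OVA and B16-F10 T cell libraries. Plcg1, the isoform downstream of the T cell receptor, fell with OVA in both fractions, by 0.42 in tumor (135 ± 1.88 and 89.9 ± 2.52 CPM) and by 0.25 in T cell libraries (165 ± 3.75 and 133 ± 1.57 CPM). Plcg2, the isoform of B and myeloid cells, rose by 1.38 in tumor libraries and was highest there, at 26.2 ± 1.14 CPM with OVA.

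IP3 receptor partners and enzymes of IP3 metabolism were 14 higher and 7 lower of 21 in tumor (median 0.48) and 10 higher and 5 lower of 21 in T cell libraries (median -0.03). Set against the all-gene shares of 42% and 37.4% in tumor and 23.7% and 22.4% in T cell libraries, the counts of lower genes lay near the background in both fractions. The IP3 kinase gene Itpkb rose by 1.76 in tumor (77.4 ± 0.961 and 234 ± 3.16 CPM) and fell by 0.33 in T cell libraries (429.9 ± 2.93 and 329 ± 4.37 CPM). A second IP3 kinase gene, Itpkc, rose in both, by 1.94 and 0.42. Itprip, whose protein binds IP3 receptors, rose by 3.60 in tumor (8.88 ± 1.04 and 95.0 ± 0.713 CPM) and fell by 0.41 in T cell libraries (142 ± 3.75 and 102.4 ± 2.70 CPM). The related Itpripl2 rose in both, by 2.26 and 0.19. Tmbim6, whose product leaks calcium from the ER, had 677 ± 10.6 and 534 ± 1.75 CPM in tumor and 493.5 ± 5.67 and 574 ± 2.33 CPM in T cell libraries, with OVA effects of -0.17 and 0.27, the signs of those of Itpr1.

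SERCA relatives and regulators were 4 higher and 1 lower of 5 tested in tumor (median 0.36) and 1 higher and 0 lower of 5 in T cell libraries (median -0.05). With 42% higher and 37.4% lower of all genes in tumor and 23.7% and 22.4% in T cell libraries, 1 of 5 in the latter was near the background for higher genes. Sln and Strit1, small peptides that act on the pump in muscle, had 0 counts in all 12 libraries, and the related Pln had 8 to 11 counts per group. The muscle pump gene Atp2a1 had at most 3.17 ± 0.377 CPM as a group mean. Vmp1, an ER protein that regulates the pump, rose with OVA by 0.36 and 0.37 in the tumor and T cell libraries.

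Release channels and calcium-binding proteins of the ER were 14 higher and 4 lower of 22 in tumor (median 0.32) and 5 higher and 4 lower of 21 in T cell libraries (median -0.04). The all-gene shares were 42% and 37.4% in tumor and 23.7% and 22.4% in T cell libraries, so both T cell counts lay at the background. Calr (calreticulin, a store buffer) rose by 0.47 and 0.10, from 746 ± 2.96 to 919 ± 13.9 CPM in tumor and from 865 ± 8.58 to 893 ± 12.8 CPM in T cell libraries. The chaperone gene Hspa5 rose by 0.35 and 0.18. Selenon and Rcn3, of a redox regulator of SERCA and a calcium-binding protein of the secretory path, rose by 1.32 and 2.40 in tumor and fell by 0.18 and 0.16 in T cell libraries. The ryanodine receptor genes Ryr1 and Ryr3 stood at 1.65 ± 0.199 and 2.21 ± 0.0835 CPM in B16-F10 tumor libraries and lower in the other groups, and Ryr2 had 0 counts in the B16-F10 tumor libraries.

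**Figure D4:**
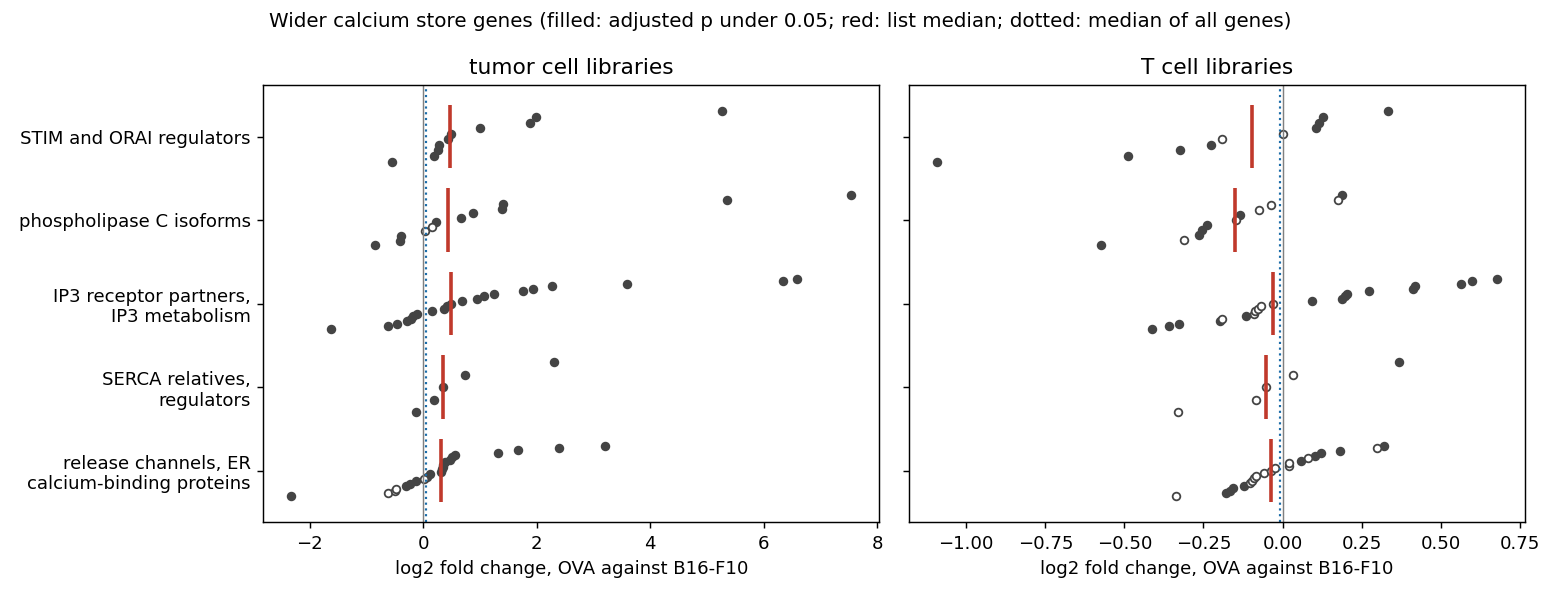
Log2 fold change of OVA against B16-F10 (horizontal axes, different scales) for the tested genes of the 5 wider lists in tumor (left) and T cell libraries (right), with the list median in red and the median of all genes dotted. List medians lie at 0.32 to 0.48 in tumor and at -0.15 to -0.03 in T cell libraries.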

How the data were processed

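Messenger RNA was sequenced in 12 libraries, 3 in each of 4 groups taken from the labels. The deposited table holds raw counts per gene, with no normalization by the authors. Reads were aligned with HISAT2 2.0.5 to GRCm39 and counted with featureCounts 1.6.0, per the submitters' processing notes. The strand setting, the handling of reads with several matches and the annotation release are not given in the sources used here, and the library kit named in the labels does not mark strand. Antisense transcripts overlap at most 2.58% of any member's exons in GENCODE M21.

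Tests used R 4.3.3 with edgeR 4.0.16: filterByExpr, TMM scaling, quasi-likelihood F tests over all genes, and p-values adjusted by Benjamini-Hochberg, called under 0.05. The OVA effects were fitted on the 6 libraries of each fraction, and the other comparisons on all 12. Levels are CPM over library totals, without TMM, so a CPM ratio can differ from a fitted fold change. Levels per kb use the exon length of GENCODE M21 (GRCm38), merged over all annotated transcripts of a gene and found for all 10 members. The transcripts present may be shorter, so shares and orders of genes per kb depend on these lengths. No coordinates are given on the files' own build. Family ratios used two-sided exact permutation tests. Alternatives were median-ratio size factors, library totals, melanoma marker scaling, DESeq2 1.42.0, limma-voom (limma 3.58.1), other filters, a 2-fold test, other sets of libraries, a replicate block and leaving out each library. The edgeR script was tested on simulated data in which few genes changed, unlike here, so that test does not bear on the choice of scaling.

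The set of members, the lists, the motifs and the tests were chosen with earlier results of these data known, and the members' rows were then taken by symbol. All members are named, up to 4 genes per wider list and comparison with the smallest adjusted p (the text uses a selection), and genes from the 3 most like each member (for Stim1 not reported here) among those with at least 5 CPM in the highest group. Genes named beyond that rule (Atp2a1, Sln, Strit1, Pln, Ryr1, Ryr2 and Ryr3) were added after their values were seen. Marker lists of neutrophils, NK cells, B cells, platelets, adipocytes and skeletal muscle were also summed.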

Additional observations from a re-analysis of the deposited data

Results flagged for a closer look

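The OVA effect differed between tumor and T cell libraries for 8 of the 10 genes, by a test of the difference itself in a fit of all 12 libraries (edgeR, adjusted over all genes). As tumor effect minus T cell effect on the log2 scale, the difference was 5.68 for Atp2a3, 4.14 for Itpr3, 2.17 for Orai1, 1.42 for Orai2, 0.55 for Stim1 and 0.27 for Stim2. It was -0.75 for Itpr1 and -0.25 for Atp2a2. For Orai1, Orai2, Stim1, Itpr3 and Atp2a3 the OVA effect was above 0 in tumor and below 0 in T cell libraries, and for Itpr1 and Atp2a2 it was the other way round. The call of Stim1 in T cell libraries was lost under several alternatives, as given above. Under melanoma marker scaling the tumor effects of Itpr1 and Atp2a2 were above 0, at 0.68 and 0.97. Their opposite signs in the 2 fractions thus depend on the scaling. Stim2 was above 0 in tumor libraries and not called in T cell libraries (0.01, SE 0.0316, edgeR adjusted p = 0.762). Of all genes tested, 69% had such a difference, with 41.3% above 0 and 27.7% below, against 6 and 2 of the 10. The count of 8 of 10 thus lay near the background. The sums of the endothelial, fibroblast, mural and macrophage markers differed between the tumor groups far more than between the T cell groups, and their part in these differences was not tested.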

How the results depend on the processing

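Over 930 values of single members under the alternatives, 849 kept their direction and side of the threshold, 40 lost the call, 10 gained it and 31 changed sign. Most of the lost calls came from the 2-fold test. Many of the 930 values came from fits without 1 library, which share most of their data, so the tally is not a count of separate checks. Sign changes met Orai3, Itpr2 and Stim2, which had estimates near 0, except under melanoma marker scaling, which put Itpr1 at 0.68, Itpr2 at 1.04 and Atp2a2 at 0.97 in tumor libraries (10 members higher, 0 lower). In tumor libraries Itpr2 became 0.032 with median-ratio size factors, 0.032 with DESeq2, 0.016 with a filter of at least 1 CPM in 3 libraries and 0.0055 in a fit of all 12 libraries, and ranged from -0.025 to 0.011 when each library was left out. Library totals turned Orai3 to -0.11 in tumor and to -0.052 in T cell libraries, Stim2 to -0.043 in T cell libraries, and the difference between the OVA effects to -0.054 for Orai3 and -0.10 for Itpr2. That difference was -0.039 for Itpr2 with median-ratio size factors and -0.038 with DESeq2, and ranged over left-out libraries from -0.028 to 0.024 for Itpr2 and from -0.0015 to 0.089 for Orai3. In T cell libraries such ranges were -0.041 to 0.053 for Orai3, -0.0072 to 0.036 for Stim2 and -0.037 to 0.014 for Itpr2. Testing against 2-fold in edgeR, a stricter question, called 4664 genes (3 members higher, 0 lower) for OVA in tumor, 450 (0 and 0) in T cell libraries, 8713 (4 and 0) and 4295 (1 and 0) between the fractions of B16-F10 and OVA tumors, and 4970 (4 and 0) for the difference. Between the fractions of OVA tumors 1 member was lower with median-ratio size factors and 1 with DESeq2, since Orai3 lost its call. Between the fractions of B16-F10 tumors Orai3 was called lower with library totals (adjusted p = 6.46e-06), without a filter (0.0266), at 1 CPM in 3 libraries (0.0494), and without B16-F10 tumor library 2 (0.0232), B16-F10 T cell library 3 (0.0119) or any OVA T cell library (0.0269 to 0.0275). Against TMM medians of all genes of 0.042, 0.119 and -0.027, library totals gave -0.127 for OVA in tumor and -0.125 and -0.159 between the fractions of B16-F10 and OVA tumors, where median-ratio factors gave 0.080 for the last. The cause of these shifts was not tested.

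Replicate numbers are shared between groups, but same-numbered libraries did not deviate together (correlations from -0.0308 to 0.0602). With the number as a replicate block edgeR called 13656, 7576, 15905, 14310 and 12723 genes in the 5 comparisons, against 13838, 7623, 15948, 14394 and 12817 without it, no count of members changed, and Orai3 in T cell libraries became -0.00073. Depth limits Atp2a3 in the B16-F10 tumor libraries (8 to 22 counts), where its OVA effect ranged from 4.95 to 5.70 over left-out libraries.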

Other observations

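Summed over a family, ORAI genes stood at 44.2 ± 0.491, 77.7 ± 1.51, 134 ± 2.24 and 109 ± 3.10 CPM in B16-F10 tumor, OVA tumor, B16-F10 T cell and OVA T cell libraries, and STIM genes at 124 ± 4.34, 144 ± 1.37, 175 ± 2.92 and 164 ± 2.36 CPM. The SERCA sum, most of it Atp2a2, went the other way, at 661 ± 6.92, 577 ± 2.78, 402 ± 2.05 and 412 ± 1.26 CPM. The ORAI and STIM sums were thus lowest, and the SERCA sum highest, in the B16-F10 tumor libraries on this scale. This did not hold for each gene. In those libraries Atp2a3 had its lowest mean (0.598 CPM) and Orai3 its highest (19.2 CPM).

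Markers not described above followed their own orders. Platelet markers summed to 64.2 to 65.6, 210 to 211, 412 to 431 and 506 to 516 CPM in the same group order, neutrophil markers to 1.08 to 1.6, 239 to 242, 40.3 to 43.6 and 72.6 to 76.2 CPM, and NK cell markers to 0.0862 to 0.158, 16.3 to 17.5, 71.8 to 74.9 and 301 to 311 CPM. B cell markers summed to 5.54 to 6.96, 34.7 to 35.9, 55.5 to 58.1 and 40.4 to 45.6 CPM, adipocyte markers to 1.21 to 1.53, 328 to 337, 716 to 743 and 714 to 733 CPM, and skeletal muscle markers stayed at or below 9.29 CPM. Few genes carried some of these sums. Itgb3 alone made most of the platelet sum (63.1, 178, 404 and 498 CPM), while Pf4 had 0.130, 25.7, 6.42 and 3.21 CPM. Fabp4 made most of the adipocyte sum outside the B16-F10 tumor libraries (255, 675 and 684 CPM), with Adipoq at most 0.315 CPM as a group mean. Gzma and Prf1 made most of the NK cell sum in OVA T cell libraries (207 and 86.8 CPM), with Ncr1 at most 0.116 CPM as a group mean.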
